A study of Homo sapiens with 12 samples.

Results

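The NR4A and EGR genes code for 2 families of immediate-early transcription factors, and 6 of them were followed here across 12 RNA-seq libraries: NR4A1, NR4A2, NR4A3, EGR1, EGR2 and EGR3. They were chosen by gene symbol, and each of the 6 symbols was found once among the 28901 named genes of the deposited count table. The cells were from ASC52telo hTERT, a commercial line of human adipose stromal cells immortalized with telomerase, and were harvested as adipocytes on day 14 of differentiation. All cells carried a lentiviral shRNA vector with a ZsGreen reporter and had been sorted for ZsGreen, and all were differentiated with insulin, dexamethasone, isobutylmethylxanthine and rosiglitazone and then kept in insulin and dexamethasone. The 4 groups of 3 libraries were scramble shRNA without LPS (scramble), scramble shRNA with 4 h of LPS at 100 ng/mL (scramble + LPS), linc-ADAIN shRNA without LPS (KD) and linc-ADAIN shRNA with the same LPS treatment (KD + LPS). linc-ADAIN is a long intergenic non-coding RNA of adipose tissue, and LPS is the bacterial lipopolysaccharide that triggers inflammatory signaling. The model has limits: it is 1 cell line, linc-ADAIN was knocked down with 1 shRNA, and the 3 libraries of a group come from a single experiment, so p-values measure the spread between these libraries, which may be technical. The level of linc-ADAIN was not analysed here, so the knockdown itself was not checked in these libraries and KD names the shRNA label.

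Immediate-early genes are transcribed within minutes of a stimulus from factors already present in the cell, and their mRNAs are short-lived. NR4A1, NR4A2 and NR4A3 (also called NUR77, NURR1 and NOR1) are orphan nuclear receptors that bind DNA without a known hormone ligand and are classically induced through cAMP and the factor CREB. EGR1, EGR2 and EGR3 are zinc finger factors that bind GC-rich sites, are classically induced through serum response factor (SRF) at CArG boxes, and switch on their own co-repressors of the NAB family.

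The members lie on 6 chromosomes of GRCh38, as annotated in GENCODE release 44. NR4A1 lies at chr12:52022832-52059507 on the plus strand, with a canonical transcript of 2485 bases in 7 exons. NR4A2 lies at chr2:156324437-156342348 on the minus strand and NR4A3 at chr9:99821855-99866891 on the plus strand. EGR1 lies at chr5:138465479-138469303 on the plus strand, with 2 exons and 1 annotated transcript. EGR2 lies at chr10:62811996-62819167 and EGR3 at chr8:22687659-22693480, both on the minus strand and both with 2 exons in the canonical transcript. NR4A1 overlaps the antisense lncRNA NR4A1AS, NR4A3 overlaps STX17-DT on the opposite strand, EGR3 overlaps an unnamed lncRNA on the opposite strand, and EGR2 overlaps an unnamed lncRNA on its own strand. The library kit keeps strand, but whether strand was used in counting is not given in the sources used here, so reads of these 4 members may be shared with the overlapping gene.

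Promoter windows are shown for the 3 members whose RefSeq window (GRCh38.p14, 250 bases before to 50 after a start) begins at the start of the canonical transcript, because they show side by side the response elements that the textbook routes to the 2 families use. Each is read 5′ to 3′ on the strand of the gene. Capitals mark the short cAMP response element TGACG, or its reverse complement CGTCA, and the CArG box.

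NR4A3, chr9:99821635-99821934, plus strand: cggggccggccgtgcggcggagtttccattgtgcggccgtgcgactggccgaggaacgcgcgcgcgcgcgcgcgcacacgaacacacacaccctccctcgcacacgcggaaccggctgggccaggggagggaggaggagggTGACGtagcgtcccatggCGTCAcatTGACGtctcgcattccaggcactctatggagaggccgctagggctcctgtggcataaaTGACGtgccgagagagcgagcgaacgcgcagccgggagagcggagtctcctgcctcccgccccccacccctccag
EGR1, chr5:138465229-138465528, plus strand: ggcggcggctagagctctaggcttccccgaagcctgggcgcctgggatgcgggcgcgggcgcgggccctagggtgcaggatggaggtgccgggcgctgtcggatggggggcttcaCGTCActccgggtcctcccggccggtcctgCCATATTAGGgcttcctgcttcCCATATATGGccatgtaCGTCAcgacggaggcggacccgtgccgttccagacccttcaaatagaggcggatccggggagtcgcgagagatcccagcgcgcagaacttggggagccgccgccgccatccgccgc
EGR2, chr10:62816317-62816616, minus strand: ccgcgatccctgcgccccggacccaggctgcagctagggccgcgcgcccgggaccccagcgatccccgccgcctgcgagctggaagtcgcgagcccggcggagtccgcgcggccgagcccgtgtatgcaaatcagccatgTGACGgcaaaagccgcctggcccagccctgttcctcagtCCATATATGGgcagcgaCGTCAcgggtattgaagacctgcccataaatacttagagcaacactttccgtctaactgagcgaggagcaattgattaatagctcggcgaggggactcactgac

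The NR4A3 window held 4 copies of TGACG, counted over both strands, at positions -109, -91, -83 and -25 from the start, and no CArG box. The EGR1 window held 2 CArG boxes, CCATATTAGG at -105 and CCATATATGG at -83, with TGACG on the minus strand at -135 and -66. In the EGR2 window there was 1 CArG box, CCATATATGG at -71, between copies of TGACG at -110 and -54. Among all 35116 promoter windows of the table, 24.6% held TGACG and 1.29% held a CArG box on either strand. The full cAMP response element TGACGTCA, present in 1.85% of all windows, and the EGR sites GCGTGGGCG and GCGGGGGCG, present in 0.795% and 5.07%, were in none of these 3 windows. The NR4A monomer site AAAGGTCA and the NF-kB site, present in 1.22% and 5.91% of all windows, were likewise in none of them. The 2 windows of NR4A1, which lie 13727 and 28610 bases from its canonical start, and the other 2 windows of EGR2 held none of the 7 motifs searched. These matches describe the letters of the window and show no binding.

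Counts on named genes totalled, in units of 1e6, 48.1 to 53.8 per scramble library, 31.5 to 44.5 with LPS, 33.4 to 50.5 per KD library and 28.4 to 45.3 with LPS. Over all libraries, NR4A1 had 1359 to 4918 counts, NR4A2 1195 to 3937, NR4A3 958 to 13272, EGR1 3606 to 14833, EGR2 184 to 1113 and EGR3 571 to 1508. Levels below are counts per 1e6 (CPM) after TMM scaling, which corrects for library size and composition. Differences were tested with edgeR's quasi-likelihood test and Benjamini-Hochberg adjustment over all genes, and a gene is said to have risen or fallen where its adjusted p was under 0.05. With 3 libraries against 3, an exact two-sided permutation test cannot go below p = 0.1. The comparisons share their groups with each other, so they are not independent. The LPS labels were checked on 12 genes known to be induced by LPS, and all 12 rose with LPS in scramble and in KD, with median log2 fold changes of 1.83 and 2.16.

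Adipocyte markers were lower in the KD groups, and this stands beside every KD result that follows. The summed level of 9 adipocyte markers was 3139 to 4350 CPM in scramble and 3647 to 4210 in scramble + LPS, against 629 to 1829 in KD and 510 to 1183 in KD + LPS. In KD, 6 of the 9 fell and none rose, and with LPS 7 of the 9 were lower in KD and none was higher. FABP4, a fatty acid carrier, averaged 1981 ± 258 CPM in scramble and 628 ± 288 in KD (SD, n = 3). The paper on these cells reports the reverse on day 14, with higher mRNA by qPCR and higher protein of FABP4, adiponectin and other adipocyte markers in KD. Why these results differ was not tested. LPL, the secreted lipase of mature adipocytes, had only 0 to 82 counts per library, and LEP of the same list 0 to 21, against the adipocyte label. Whether these low counts reflect expression or the counting was not tested. None of the 9 passed in either LPS comparison. The 6 macrophage and leukocyte markers summed to 5.71 to 7.53 CPM in scramble and 56.9 to 87.0 in KD. CD163, a scavenger receptor, made up most of the latter (4.33 ± 1.12 CPM in scramble and 68.6 ± 13.7 in KD), while PTPRC, the pan-leukocyte CD45 gene, stayed at 0 to 12 counts. Stromal markers summed to 2986 to 3062 CPM in scramble and 2287 to 2341 in KD, but they did not move together. Of the 6 stromal markers, 2 rose and 3 fell in KD without LPS. DPP4 averaged 113 CPM in scramble and 475 in KD, whereas THY1 averaged 764 and 148. The 5 endothelial markers summed to 15.6 to 19.1 CPM in scramble, 9.38 to 10.1 in KD, 10.5 to 11.6 in scramble + LPS and 5.42 to 10.02 in KD + LPS. VWF, a clotting protein of endothelium, was at 9.66 ± 1.40 CPM in scramble and 2.21 ± 0.381 in KD. KDR, from the same list, went the other way, from 0.107 ± 0.0801 CPM in scramble + LPS to 3.12 ± 0.987 in KD + LPS. Of 4 endothelial markers tested, 1 fell and 0 rose in KD without LPS, and with LPS 1 was higher and 2 lower. In bulk RNA, fewer cells of a type and less RNA per cell cannot be told apart, and the part of cell makeup in the member differences was not tested.

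KD raised members of both families, whereas LPS raised NR4A genes and lowered EGR genes. Without LPS, 5 of the 6 members rose in KD and none fell, where 27.2% of 16217 genes tested passed and 12.1% of those tested were higher. LPS raised all 3 NR4A genes in scramble and lowered EGR1 and EGR3, where 5.90% of 15920 genes tested were higher and 8.38% lower. EGR2 did not pass there. In KD, LPS raised NR4A2 and NR4A3 and lowered all 3 EGR genes, where 5.32% of 16169 genes were higher and 6.03% lower. NR4A1 did not pass with LPS in KD. The highest group was KD + LPS for each NR4A gene and KD without LPS for each EGR gene.

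**Figure D1:**
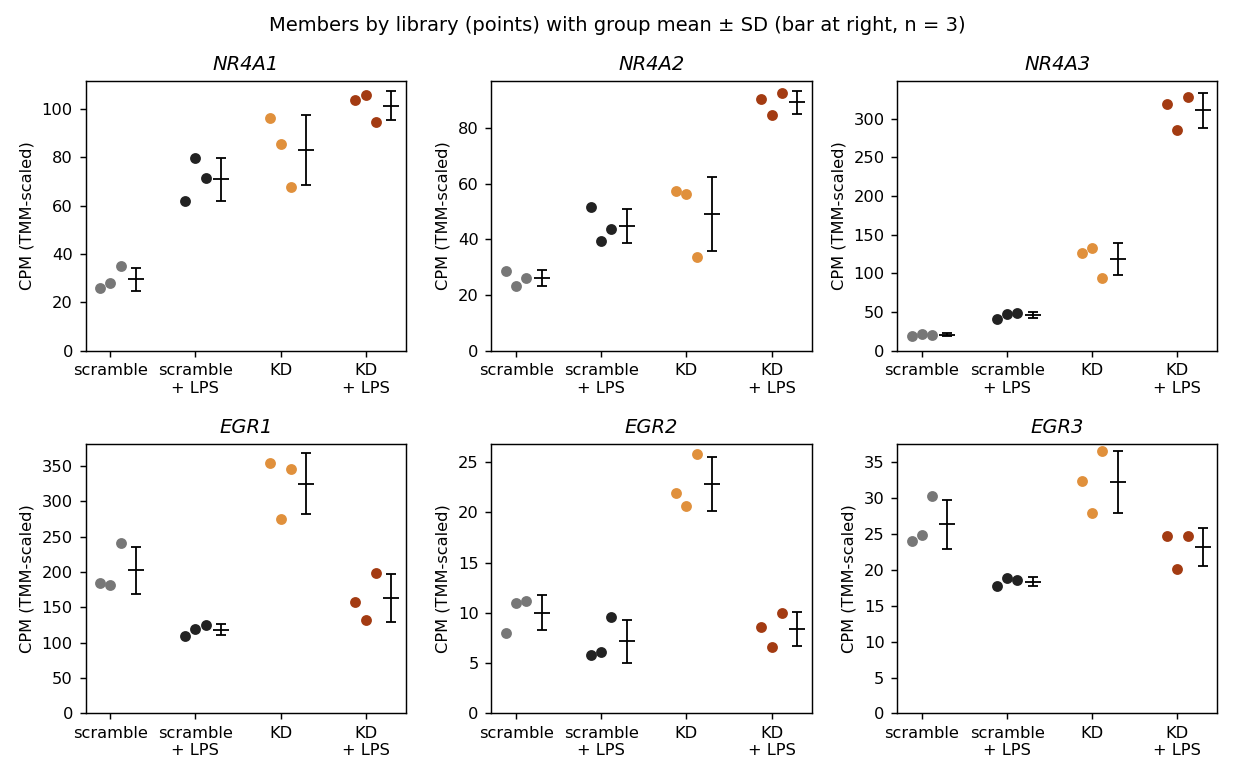
CPM after TMM scaling (linear axes from 0) of the 6 members in each of the 12 libraries, with the group mean and SD of 3 libraries at the right of the points. Each NR4A gene is highest in KD + LPS, with NR4A3 at 285 to 327 CPM, and each EGR gene is highest in KD without LPS, with EGR1 at 275 to 355 CPM.

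NR4A3 showed the largest KD differences of the 6 members. It was at 18.5, 22.2 and 20.6 CPM in scramble and at 127, 133 and 94.6 CPM in KD. The 3 KD libraries were all above the 3 scramble libraries, and NR4A3 rose by 2.54 on the log2 scale (standard error 0.130, adjusted p = 1.10e-07), or 5.80-fold. With LPS it was at 41.2, 47.7 and 48.8 CPM in scramble and 319, 285 and 327 in KD, so that the 4 groups did not overlap at any step of their order from scramble through scramble + LPS and KD to KD + LPS. The KD difference with LPS was 2.76 (standard error 0.0934, adjusted p = 3.60e-10), or 6.77-fold. LPS raised NR4A3 by 1.18 in scramble (standard error 0.103, adjusted p = 1.74e-05) and by 1.39 in KD (standard error 0.112, adjusted p = 8.50e-07). The difference between these LPS effects, 0.23, was not past the test (standard error 0.160, adjusted p = 0.661).

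NR4A1 was raised by KD and by LPS, and the increments did not add on the log2 scale. Its libraries were at 25.8, 27.8 and 34.9 CPM in scramble and rose to 61.9, 79.6 and 71.4 with LPS. The KD libraries were at 96.1, 85.5 and 67.6 CPM, and those of KD + LPS at 104, 106 and 94.4. All scramble libraries were below the other 9, while the ranges of scramble + LPS and KD overlapped, and those of KD and KD + LPS overlapped at 94.4 to 96.1 CPM. KD raised NR4A1 by 1.50 without LPS (standard error 0.141, adjusted p = 1.03e-05) and by 0.51 with LPS (standard error 0.0986, adjusted p = 1.44e-03). LPS raised it by 1.28 in scramble (standard error 0.126, adjusted p = 3.96e-05), or 2.43-fold, and the value in KD was 0.29 (standard error 0.112, adjusted p = 0.131), or 0.40 and past the test without KD replicate 1 (adjusted p = 0.047). The interaction of KD with LPS was -0.98 (standard error 0.182, adjusted p = 0.00997). NR4A1 was the 1 member of 6 past this test, where 1.28% of 17173 genes tested passed and 0.332% did so in the negative direction. Its adjusted p was between 6.1e-05 and 0.039 over all 18 alternatives, and its value was between -1.13 and -0.86 when any 1 library was left out.

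NR4A2 was at 28.7, 23.1 and 26.3 CPM in scramble, the narrowest of its 4 groups. In KD it was at 57.4, 56.4 and 33.6 CPM, and KD replicate 3 was thus below the scramble + LPS libraries at 51.6, 39.5 and 43.6 and above those of scramble. The KD + LPS libraries, at 90.4, 84.7 and 92.7 CPM, lay above the rest. NR4A2 rose in KD by 0.92 without LPS (standard error 0.175, adjusted p = 2.04e-03) and by 0.99 with LPS (standard error 0.104, adjusted p = 8.88e-06). LPS raised it by 0.80 in scramble (standard error 0.118, adjusted p = 8.08e-04) and by 0.86 in KD (standard error 0.155, adjusted p = 1.77e-03), and the interaction was 0.075 (standard error 0.218, adjusted p = 0.982). KD replicate 3 was the lowest KD library for all 3 NR4A genes, and it also had the lowest summed adipocyte markers of the KD group, 629 CPM against 1829 and 1389. KD + LPS replicate 3 likewise had the lowest such sum of its group, 510 CPM against 1183 and 812. It was the lowest of that group for NR4A1 but the highest for NR4A2 and NR4A3. Without KD replicate 3 the KD difference of NR4A2 was 1.13 and its interaction -0.16.

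EGR1 was the most abundant EGR gene per kilobase of transcript in every library. It was at 185, 182 and 241 CPM in scramble and at 355, 275 and 346 in KD. These groups did not overlap, and EGR1 rose by 0.69 (standard error 0.124, adjusted p = 1.41e-03), or 1.61-fold. With LPS it was at 110, 119 and 125 CPM in scramble and 158, 132 and 199 in KD, again without overlap, a difference of 0.46 (standard error 0.124, adjusted p = 0.0126). Without KD + LPS replicate 3, the highest library of its group, this difference was 0.29 and no longer past the test (adjusted p = 0.061). Under LPS, EGR1 fell by 0.76 on the log2 scale in scramble, or 1.70-fold (standard error 0.110, adjusted p = 6.34e-04), and in KD it fell by 0.995, or 1.99-fold (standard error 0.131, adjusted p = 1.28e-04). KD + LPS libraries overlapped with scramble without LPS, and the interaction of -0.22 was not past the test (standard error 0.191, adjusted p = 0.757).

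EGR2, the member with the fewest counts, was highest in KD without LPS. It was at 7.99, 10.9 and 11.2 CPM in scramble and at 21.9, 20.7 and 25.8 in KD, with no overlap. EGR2 rose in KD by 1.19 (standard error 0.150, adjusted p = 1.06e-04), or 2.28-fold. With LPS its libraries were at 5.80, 6.08 and 9.61 CPM in scramble and at 8.54, 6.63 and 9.98 in KD. These groups overlapped with each other and, for KD + LPS, with scramble without LPS, and the KD difference with LPS was 0.22 (standard error 0.233, adjusted p = 0.556). Under LPS in KD, EGR2 fell by 1.45 on the log2 scale, or 2.73-fold (standard error 0.167, adjusted p = 3.57e-05). In scramble the value was -0.47 (standard error 0.213, adjusted p = 0.183), and without scramble + LPS replicate 3, its highest library, it was -0.74 and past the test (adjusted p = 0.042). The interaction was -0.97 (standard error 0.285) and missed the threshold (adjusted p = 0.128), but passed with DESeq2 (adjusted p = 0.049) and without the filter on low counts (adjusted p = 0.032).

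EGR3 did not pass the test in either KD comparison. It was at 24.1, 24.8 and 30.3 CPM in scramble and at 32.4, 28.0 and 36.6 in KD, and these groups overlapped. The KD difference was 0.30 (standard error 0.125, adjusted p = 0.104). With LPS it was at 17.7, 18.9 and 18.6 CPM in scramble and 24.8, 20.1 and 24.7 in KD, where every KD library was higher but the difference of 0.33 was not past the test (standard error 0.122, adjusted p = 0.0600). Both KD differences passed when libraries were scaled by their size only (0.40, adjusted p = 0.028, and 0.42, adjusted p = 0.020), and each also passed when replicate 2 of its KD group was left out. With LPS, EGR3 fell by 0.51 on the log2 scale in scramble (standard error 0.111, adjusted p = 0.0100) and fell by 0.48 in KD (standard error 0.130, adjusted p = 0.0278), with no overlap in either. The fall in KD lost its call when KD replicate 1 or 3, or KD + LPS replicate 2 or 3, was left out (adjusted p up to 0.119), and the interaction was 0.042 (standard error 0.176, adjusted p = 1.00).

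**Figure D2:**
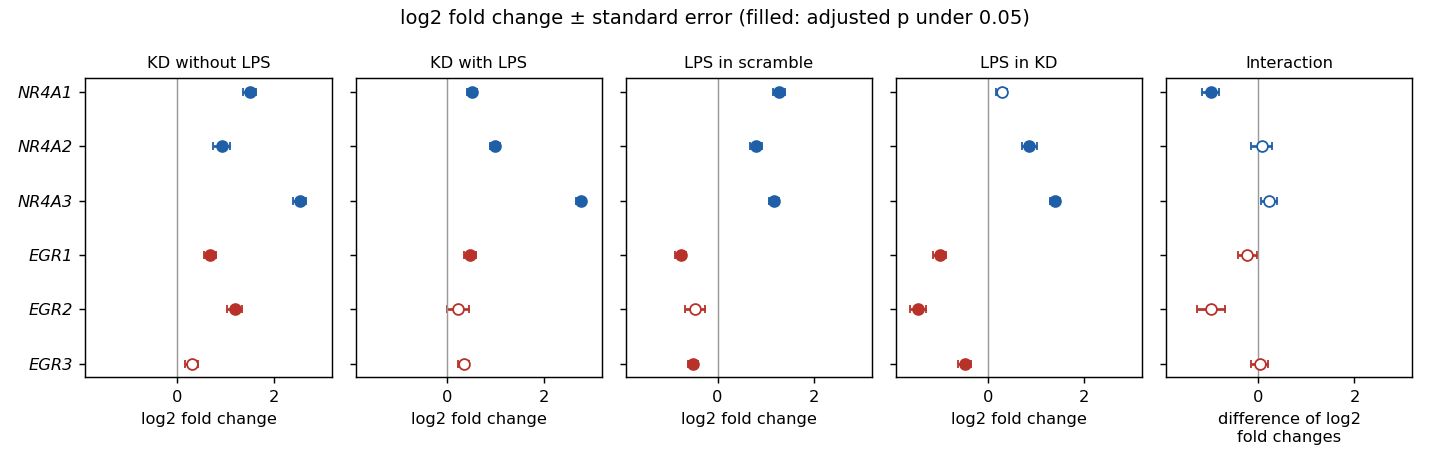
log2 fold changes of the 6 members in the 4 comparisons of groups, and the difference of the KD effects with and without LPS at the right. Points are estimates, bars are standard errors, and filled points have an adjusted p under 0.05: 5 of 6 members pass in KD without LPS, 4 in KD with LPS, 5 with LPS in each shRNA and 1, NR4A1, in the interaction. Of all genes tested, 27.2% pass in KD without LPS, 26.9% in KD with LPS, 14.3% with LPS in scramble, 11.3% with LPS in KD and 1.28% in the interaction.

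Over the members, KD with LPS gave 4 that rose and 0 that fell, where 26.9% of 15981 genes passed and 12.7% were higher. All members but EGR2 had groups that did not overlap in this comparison, and likewise all but EGR3 without LPS, against 20.0% and 20.1% of genes with every KD library higher. At least 2-fold rises were those of NR4A1, NR4A3 and EGR2 without LPS, where 4.28% of genes passed this rule upward, and that of NR4A3 with LPS, where 4.58% did. In scramble, LPS raised 3 members and lowered 2, where 14.3% of 15920 genes passed, 5.90% higher and 8.38% lower. The same 5 members had groups that did not overlap, against 14.3% of genes with every LPS library higher and 17.8% with every one lower, and the rises of NR4A1 and NR4A3 were at least 2-fold, as were 1.40% of genes upward. This background rests in part on 1 library, since 1187 genes passed without scramble replicate 2 and 2274 with it. In KD, LPS raised 2 members and lowered 3, where 11.3% of 16169 genes passed, 5.32% higher and 6.03% lower. These 5 members also did not overlap between the groups, against 13.6% of genes upward and 13.7% downward. The rise of NR4A3 and the fall of EGR2 were at least 2-fold, against 1.30% of genes upward and 0.946% downward.

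The direction of the member calls was the same under every scaling run, although the split of calls over all genes was not. With libraries scaled by size only, the median log2 difference of all genes in KD without LPS was 0.13 instead of 0.024, and with LPS 0.11 instead of 0.025. The share of calls that were higher in KD went from 44.5% to 61.4% without LPS and from 47.2% to 59.2% with LPS. For LPS in KD it went from 46.9% to 35.2%.

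**Figure D3:**
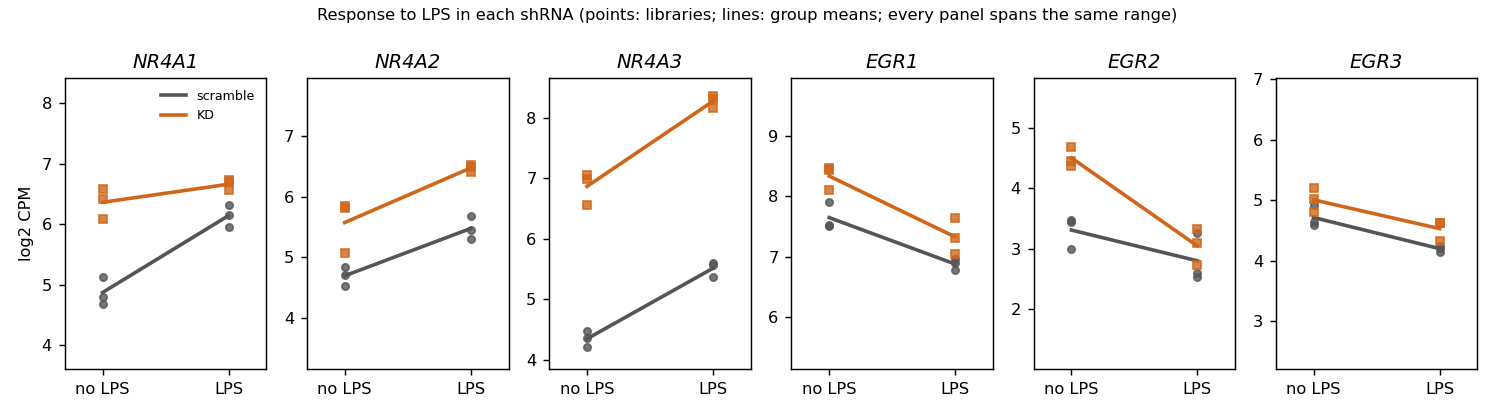
log2 CPM of each member without and with LPS in scramble (gray circles) and KD (orange squares), 3 libraries each, with lines through the group means. Every panel spans the same range of log2 CPM. The NR4A1 line is steeper in scramble than in KD, the NR4A2 and NR4A3 lines rise in both, and all 3 EGR lines fall, that of EGR2 more steeply in KD.

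Per kilobase of canonical transcript, which allows levels of different genes to be compared, EGR1 was the highest member in 3 of the 4 groups. In scramble EGR1 was at 64.5 ± 10.6 CPM per kilobase, followed by NR4A1 at 11.9 ± 1.93 and NR4A2 at 7.50 ± 0.814. EGR3 was at 5.85 ± 0.753, its highest library just above the lowest of NR4A2, while NR4A3 at 3.65 ± 0.331 and EGR2 at 3.37 ± 0.592 overlapped at the low end. In KD + LPS NR4A3 was at 55.4 ± 3.96, EGR1 at 52.0 ± 10.8 and NR4A1 at 40.8 ± 2.45 CPM per kilobase, and NR4A3 could not be separated from EGR1, nor EGR1 from NR4A1. NR4A3 thus went from below all members but EGR2 in scramble to the level of the highest in KD + LPS. With the longest transcript in place of the canonical one, 18 of the 24 ranks stayed as they were. The length used for NR4A1 then went from 2485 to 4837 bases, the largest change of any member. That length put NR4A1 below EGR1 in every KD + LPS library.

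Within each family, the share of each member in the summed level per kilobase was computed for every library. NR4A3 made up 15.9% ± 1.98 of the summed NR4A level per kilobase in scramble and 16.5% ± 0.909 in scramble + LPS. In KD it made up 30.8% ± 1.50, and in KD + LPS 45.4% ± 2.13. The share of NR4A1 was 51.4% ± 4.14 in scramble, 57.3% ± 4.42 in scramble + LPS, 48.8% ± 2.29 in KD and 33.5% ± 2.63 in KD + LPS. The summed NR4A level was 23.0 ± 1.97 CPM per kilobase in scramble, 49.7 ± 2.40 in scramble + LPS, 68.7 ± 13.0 in KD and 122 ± 3.58 in KD + LPS. EGR1 held 85.3% to 87.5% of the summed EGR level as the mean of each group, while the sum itself was 73.7 ± 11.7 CPM per kilobase in scramble, 44.1 ± 3.21 in scramble + LPS, 118 ± 15.2 in KD and 60.0 ± 11.9 in KD + LPS. These shares were not tested, and those of the NR4A genes depend on the transcript chosen. With the longest transcript of NR4A1, 4837 bases in place of 2485, its share is smaller in every group. Those of NR4A2 and NR4A3 are then larger.

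**Figure D4:**
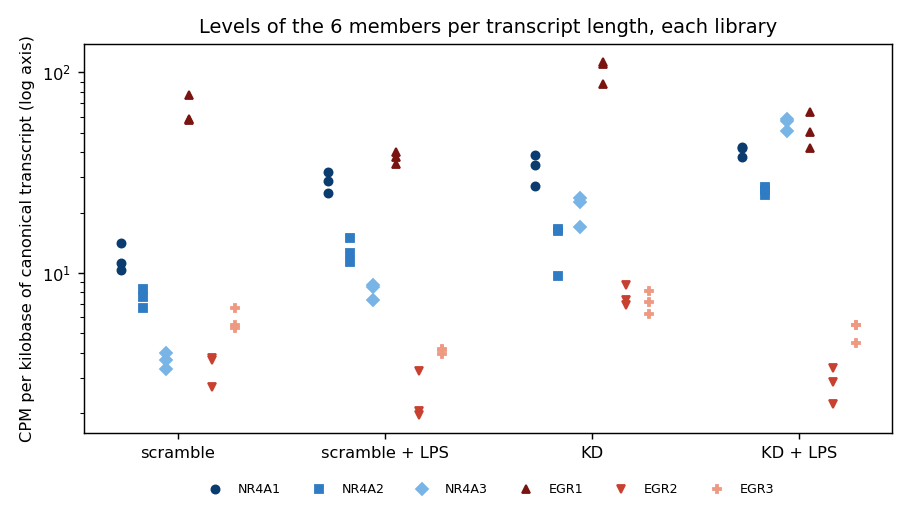
CPM per kilobase of canonical transcript (log axis) of the 6 members in each library of the 4 groups, blue for NR4A and red for EGR. EGR1 is the highest member except in KD + LPS, where NR4A3 at a mean of 55.4 reaches its range, while EGR2 and EGR3 stay below 10 CPM per kilobase throughout.

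Across the 12 libraries, log2 CPM correlated between members of a family and little between families. Pearson's r was 0.87 to 0.92 among the NR4A genes, 0.87 to 0.97 among the EGR genes, and -0.20 to 0.15 between an NR4A and an EGR gene. The points share libraries, depth and the same 4 groups, so that r largely restates the group differences. Of 12020 genes with a mean of at least 1 CPM, the 3 most like NR4A1 were PDE4D, a cAMP phosphodiesterase (r = 0.98), PER1, a circadian repressor (0.97), and PEX5L (0.96). For NR4A2 they were INSIG2, which retains sterol sensors in the endoplasmic reticulum, ATP2B1, a plasma membrane calcium pump, and AZI2 (0.97 to 0.98). SLC39A8, a zinc and manganese importer, DNAJB9, a chaperone of the endoplasmic reticulum, and PLD1, a phospholipase, were the most like NR4A3 (each 0.99). EGR1 was most like YWHAH, MLX and RDH8 (0.96 each), and EGR3 like HSPA4, YWHAH and RDH8 (0.94 to 0.95), while EGR2 was most like PPAT, TXNIP and TTPAL (0.92 to 0.93). Ranking by Spearman's rho kept 6 of these 18 neighbours.

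Among the relatives and partners of the members, the co-repressor NAB2, itself a classic EGR target, moved in the same direction as EGR1 in each of the 4 comparisons of groups. NAB2 was at 34.9 ± 5.02 CPM in scramble, 18.7 ± 0.300 in scramble + LPS, 43.96 ± 1.07 in KD and 30.2 ± 2.57 in KD + LPS. It rose in KD by 0.34 without LPS (standard error 0.11, adjusted p = 0.035) and by 0.69 with LPS (standard error 0.11, adjusted p = 3.2e-04), and with LPS it fell by 0.89 in scramble and fell by 0.54 in KD (adjusted p = 2.8e-04 and 2.3e-03). Its relative NAB1 did not pass in any comparison, with values from -0.05 to 0.49. RXRA, a retinoid receptor that can pair with NR4A1 and NR4A2, was lower in KD without and with LPS (log2 fold changes of -0.40 and -0.58, adjusted p = 6.0e-03 and 2.3e-03). RXRB rose with LPS in scramble by 0.42 (adjusted p = 0.017). RXRG and EGR4 had 0 to 34 and 6 to 46 counts per library, and no difference was detectable in them at this depth.

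Among the other immediate-early genes, more rose than fell in KD. Of 26 tested, 15 rose and 3 fell in KD without LPS, where 12.1% of all genes tested rose and 15.1% fell. Their median log2 fold change was 0.29 against 0.024 for all genes. The largest rises were those of PTGS2, the inducible cyclooxygenase (2.12), FOS, an AP-1 subunit (1.56), and SGK1, a kinase (1.54). KLF4 (-1.20), FOSL1 (-0.76) and MYC (-0.50) fell. With LPS, 15 were higher in KD and 4 lower, against 12.7% and 14.2% of all genes. They were led by PTGS2 (3.08), SGK1 (2.27) and IER3 (1.98) and by KLF4 (-1.17), FOSL1 (-0.81) and MYC (-0.65).

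Under LPS more of these 26 fell than rose. In scramble 5 rose and 11 fell, where 5.90% of all genes tested rose and 8.38% fell, and their median was -0.22 against 0.020 for all genes. PTGS2 (2.39), BTG1 (1.02) and ATF3 (0.88) rose, and ARC (-1.89) and the matricellular genes CCN2 (-1.75) and CCN1 (-1.38) fell. ARC had few counts with LPS, 13 to 31 per library in scramble + LPS and 6 to 25 in KD + LPS. In KD 7 rose and 12 fell, against 5.32% and 6.03% of all genes. PTGS2 was at 3.34, ATF3 at 1.08 and BTG1 at 1.02, and ARC at -2.23, FOSB at -1.18 and CCN1 at -0.92. The interaction passed for 6 of the 26, each in the positive direction, where 0.943% of all genes passed, whereas that of NR4A1 was negative.

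Among 19 tested regulators of immediate-early transcription, 4 rose and 9 fell in KD without LPS, where 12.1% of all genes tested rose and 15.1% fell, and their median was -0.23. NFATC2, a calcium-regulated factor (2.04), CREM, a cAMP-responsive factor (1.22), and MEF2D (0.63) rose, and MEF2C (-1.95), SRF (-0.998) and CREB1 (-0.89) fell. With LPS 6 were higher and 6 lower in KD, against 12.7% and 14.2% of all genes, with NFATC2 at 1.41, CREM at 0.67 and MEF2A at 0.63, and with MEF2C at -1.98, MRTFB at -1.26 and CRTC1, a coactivator of CREB, at -0.87. LPS in scramble raised 1 of the 19, MRTFB (0.44), and lowered 4, SRF (-0.75), ELK3 (-0.68), MEF2A (-0.67) and CREB1 (-0.33). Of all genes, 5.90% rose there and 8.38% fell. In KD, LPS raised 1 of the 19, MEF2A (0.32), and lowered 2, SRF (-0.57) and ELK3 (-0.49), against 5.32% and 6.03% of all genes. The share of the 19 that rose was thus near that of all genes in both.

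Known EGR1 target genes did not move as 1 group. In KD without LPS 2 of 11 rose and 5 fell, against 12.1% and 15.1% of all genes. The median of the 11 was -0.18, with ICAM1 at 1.61 and MMP14 at 0.60 among the rises and TGFB1 at -0.64 among the falls. With LPS 3 were higher in KD, ICAM1 (1.28), MMP14 (0.88) and THBS1 (0.73), and 4 lower, among them TGFB1 (-0.76). Of all genes, 12.7% were higher and 14.2% lower. LPS raised ICAM1 (2.70) and CD44 (0.65) in scramble and lowered 5, among them VEGFA, an angiogenic growth factor (-0.91), and F3, which codes for tissue factor (-0.90). It raised 5.90% of all genes there and lowered 8.38%. In KD, LPS raised 3, among them ICAM1 (2.36) and CD44 (0.86), and lowered 4, among them VEGFA (-0.83) and TGFB1 (-0.55), against 5.32% and 6.03% of all genes. ICAM1 is also 1 of the 12 genes used to check the LPS labels.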

How the data were processed

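Poly(A) RNA of 12 libraries was sequenced after a stranded library preparation. Per the submitters' processing notes, bcl2fastq 2.19 and kallisto 0.44.0 were used, with GRCh38 as the build. The authors deposited estimated counts per gene symbol, not normalized for depth or length. The annotation behind them is not given in the sources used here. Estimated counts assigned to transcripts can be split between overlapping genes or near-identical copies. A row without a gene name, 0.235% to 0.306% of the counts, was left out, and every column was mapped to a sample by its label.

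In R 4.3.3, counts were rounded and a gene was kept in a fit if its counts there summed to 10 or more. edgeR 4.0.16 scaled libraries by TMM and applied its quasi-likelihood F test. P-values were adjusted by Benjamini-Hochberg over all genes tested, with a threshold of 0.05. KD with scramble, without and with LPS, and LPS with no LPS, in scramble and in KD, were compared on 6 libraries each, and the interaction on all 12. A standard error is the size of the log2 fold change divided by the square root of F. log2 CPM used a prior count of 2. Alternatives were other scalings, other filters, a fit on all 12 libraries, DESeq2 1.42.0, a block for the replicate number, and leaving out 1 library at a time. The fits were tested on simulated data. Within groups, log2 CPM correlated at 0.976 to 0.989.

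The members, gene lists and tests were chosen with earlier results of these data known. The text names every member, each relative and partner, in each list the 3 largest rises and falls past the test, and the 3 genes most correlated with each member. Some genes of the EGR1 target list are counted in it, but their own values are not reported here. CREB1 with LPS in scramble, as the last of 4 falls, was named after its value was seen. Motifs were searched on both strands of RefSeq promoter windows, which 4 of the 6 members had on the chromosomes read here. The level of linc-ADAIN was not analysed here.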

Additional observations from a re-analysis of the deposited data

Results flagged for a closer look

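The effect of KD differed between cells with and without LPS, by edgeR's test of the interaction over 17173 genes, for 1 member of 6. It also differed for 9 genes of the lists of regulators, other immediate-early genes and EGR1 targets, of which 19, 26 and 11 were tested. Of all genes tested, 1.28% passed, 0.943% upward and 0.332% downward. Of the 12 genes used to check the LPS labels, 3 passed this test upward and 1 downward. For NR4A1 the KD effect with LPS minus that without LPS was -0.98 on the log2 scale, with KD above scramble in both states. Among the regulators it was -0.74 for MRTFB and 1.00 for MEF2A, which fell in KD without LPS and was higher in KD with LPS. Among the other immediate-early genes it was 0.72 for IER3, 1.07 for IER5, 0.76 for KLF6, 0.94 for CCN2, 0.96 for PTGS2 and 0.73 for SGK1. For THBS1, a known EGR1 target, it was 0.73.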

How the results depend on the processing

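Of 30 member results, 21 had 1 direction and 1 side of the threshold throughout the alternatives run. Calls that changed with a setting or with a library left out are given in the report, except 2 more: EGR3 in KD with LPS passed with edgeR's own expression filter (adjusted p = 0.048), and NR4A1 with LPS in KD passed without a filter on low counts (adjusted p = 0.042) and without KD replicate 1 (adjusted p = 0.047). The count of members past the interaction test was 2 in place of 1 with no filter and with DESeq2, EGR2 being added. Over all genes the interaction passed for 219, for 431 with no filter and for 475 with DESeq2. With each library left out it passed for 92 to 243, the lowest without scramble replicate 2. It was 131 without KD replicate 1, and 136 and 116 without KD + LPS replicate 2 and 3. LPS in scramble gave 2274 genes, 1187 to 2106 with a library left out, and 1461 without scramble + LPS replicate 3. The interactions of NR4A2 (-0.16 to 0.20) and EGR3 (-0.068 to 0.14) changed sign with a library left out and passed in none of these fits. The level of EGR3 in scramble + LPS, 18.4 CPM, was 17.6 with scaling by size only, and it was the only 1 of 24 group levels to move by more than 1 SD. The cause of these changes was not tested.

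Libraries of the same replicate number deviated together little, with correlations of -0.10 to 0.23 and 4 of 12 over 0.1. For LPS in scramble all were positive, from 0.052 to 0.23. Whether the numbers pair the samples is not given by the labels and is not settled by these values. With the replicate block, 3857, 4636, 3260, 2238 and 231 genes passed in KD without LPS, KD with LPS, LPS in scramble, LPS in KD and the interaction. Without the block these numbers were 4411, 4292, 2274, 1835 and 219. The block changed 2 member calls, EGR2 with LPS in scramble (adjusted p = 0.036) and NR4A1 with LPS in KD (adjusted p = 0.030), both of which then passed.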
